A study of Mus musculus with 2 samples.

Results

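The cells described here are hypothalamic neurons chosen by 2 transcripts, Vgll2 and Slc17a6, in a single-cell RNA-seq study of mice that lack 1 copy each of Irx3 and Irx5. A cell was a member if it held at least 1 unique molecular identifier (UMI, a tag that marks 1 captured RNA molecule) of Vgll2 and at least 2 of Slc17a6. It also had to hold less than 10 UMIs per 10000 of Agrp, less than 10 of Pomc and less than 5 of Tac2, and at least 5 per 10000 of Snap25, Stmn2 and Syt1 together, which marks neurons. Of 7418 cells, 205 met this rule. They were proposed under the name Vgll2 and Cartpt glutamate neurons, but Cartpt was detected in only 33 of the 205, and they are called Vgll2/Slc17a6 neurons below.

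The study dissected the arcuate nucleus with the median eminence from CD-1 mice on postnatal day 10, sorted the tdTomato+ cells and made one 10x Genomics library per genotype. The dHet library came from mice of genotype Ins2-Cre;tdTomato+/-;Irx3/5+/-, and the control library from Ins2-Cre;tdTomato+/- mice. Both groups carry the Cre transgene and the reporter, so only cells that Ins2-Cre had labelled were sorted in either. Each library is 1 pool of 5 mice, so there is no biological replicate, no test between genotypes was possible, and every interval below covers counting error only. The dHet library gave 107 members among 3939 cells and the control library 98 among 3479.

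Vgll2 encodes a member of the Vestigial-like family, cofactors that bind TEAD transcription factors and are best known from skeletal muscle and the embryonic face. Slc17a6 encodes VGLUT2, the transporter that loads glutamate into synaptic vesicles and marks most excitatory hypothalamic neurons. Irx3 and Irx5 are neighbouring genes for Iroquois homeobox transcription factors. The arcuate nucleus is best known for its feeding circuits of Agrp and Pomc cells, which the rule removes.

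The upstream regions of 3 genes are shown because each stands for one result: Vgll2 chose the cells, Bsx marks one of the classes found among them, and Fos was among the genes lowest in dHet members. Each is the 250 bases before the RefSeq gene start on the strand of the gene, from build GRCm38.p6, with capitals for every match on either strand to 4 motifs. The TATA box was searched as TATAAA. The core of the cAMP response element was searched as TGACG. A TEAD site was searched as GGAATG, and the last motif was the CCAAT box, searched by its name. The Vgll2 region is chr10:52022252-52022501, the Bsx region chr9:40873877-40874126 and the Fos region chr12:85473640-85473889, all on the + strand.
Vgll2: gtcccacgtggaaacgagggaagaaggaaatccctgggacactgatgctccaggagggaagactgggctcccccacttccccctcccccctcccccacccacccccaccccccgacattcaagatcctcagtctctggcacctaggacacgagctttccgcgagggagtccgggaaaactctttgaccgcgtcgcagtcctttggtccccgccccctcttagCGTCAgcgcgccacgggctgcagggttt
Bsx: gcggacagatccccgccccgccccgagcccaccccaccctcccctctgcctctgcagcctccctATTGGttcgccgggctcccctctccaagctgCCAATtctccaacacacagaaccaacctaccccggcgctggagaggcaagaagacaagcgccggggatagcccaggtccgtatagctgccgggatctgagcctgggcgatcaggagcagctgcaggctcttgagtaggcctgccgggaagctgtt
Fos: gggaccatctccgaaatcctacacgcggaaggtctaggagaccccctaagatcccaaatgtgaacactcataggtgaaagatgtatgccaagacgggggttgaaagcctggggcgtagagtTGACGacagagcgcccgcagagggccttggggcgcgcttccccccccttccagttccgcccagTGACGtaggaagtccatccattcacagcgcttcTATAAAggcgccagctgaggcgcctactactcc

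The Vgll2 region held 1 match, to the cAMP response element core on the opposite strand, 28 to 24 bases upstream. The Bsx region held the CCAAT box once on each strand, 155 to 151 and 186 to 182 bases upstream. The Fos region held a TATA box 33 to 28 bases upstream and 2 cAMP response element cores, 129 to 125 and 66 to 62 bases upstream. No match to GGAATG was in any of the 3. Among 32851 mouse promoters of the same length, 12.4% held TATAAA, 33.9% CCAAT, 17.8% TGACG and 12.6% GGAATG.

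Irx3 and Irx5, the genes that dHet mice lack on 1 allele, were read at low levels. Levels are given as CPM, the UMIs of a gene scaled to the UMIs of all genes in the same cells. In the cells outside the rule, Irx3 had 43 UMIs (0.621 CPM) in dHet and 95 UMIs (1.57 CPM) in control, and Irx5 had 108 UMIs (1.56 CPM) in dHet and 182 UMIs (3.01 CPM) in control. Both were lower in dHet. Most of these UMIs lay in cells below the neuron limit, where Irx3 was at 4.79 CPM in dHet and 9.08 CPM in control and Irx5 at 13.4 CPM in dHet and 17.2 CPM in control. In the members themselves, Irx3 had 0 UMIs in dHet and 0 in control, which allows up to 1.17 CPM in dHet and 1.16 CPM in control. Irx5 had 2 UMIs in dHet members and 0 in control members. The level of the deleted genes in these neurons was therefore too low to compare.

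Member libraries were deep. The summed total was 2556932 UMIs in dHet members and 2593485 in control members, with a median per cell of 23906 in dHet and 25422.5 in control. Of all UMIs in members, 6.45% were mitochondrial in dHet and 4.29% in control, and the same shares in other glutamate neurons (2 or more Slc17a6 UMIs, the same limits, 0 Vgll2 UMIs) were 6.56% in dHet and 4.54% in control. The sexes were mixed differently: 62.6% of dHet members and 36.7% of control members held Xist and no Y-linked UMI, and 29.0% of dHet and 56.1% of control members held a Y-linked UMI and no Xist. Both libraries held cells of both kinds, and values within each kind are given beside some results below. Each library is 1 pool of mice, so genotype cannot be told apart from the pool and its handling. In all, 4 barcodes occurred in both libraries, and 1 of them was a member's, in 1 library only.

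Values just inside and outside the limits of the rule show how the cells were selected. Vgll2 ranged up to 36 UMIs a cell with a median of 3, and 47 members held a single Vgll2 UMI. Slc17a6 ranged up to 53 UMIs with a median of 17, and 10 members held exactly 2. Another 47 cells with a Vgll2 UMI were outside the rule: 37 held 0 Slc17a6 UMIs, 6 held 1, 1 was above the Pomc limit and 3 were above the Tac2 limit. Among members the highest Agrp level was 7.87 per 10000, and the lowest summed level of the 3 neuron genes was 10.9 per 10000. A Vgll2 UMI was found in 0.677% of dHet and 0.494% of control cells below the neuron limit, and in 0.719% of dHet and 0.431% of control GABA neurons, whose median depth was 20473 UMIs in dHet and 23230 in control. Whether free RNA gave any of the 47 members with 1 UMI was not tested.

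Vgll2/Slc17a6 neurons made up 2.72% of dHet cells (95% exact binomial interval 2.23 to 3.27) and 2.82% of control cells (2.29 to 3.42), a ratio of 0.964 (exact conditional interval 0.726 to 1.28). Of neurons they were 3.51% in dHet and 3.97% in control, a ratio of 0.882 (0.665 to 1.17). Of glutamate neurons they were 15.3% in dHet and 17.2% in control, a ratio of 0.889 (0.669 to 1.18). Each interval includes 1 but covers counting error only. With 1 pool of mice per genotype, a difference in share between genotypes could not be tested.

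**Figure D1:**
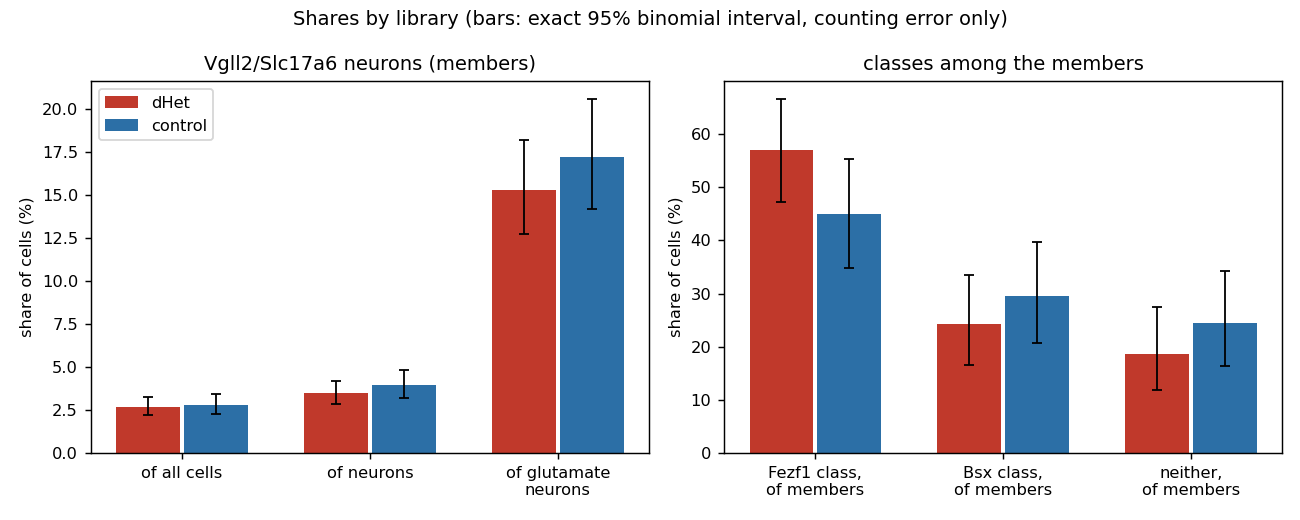
Share of Vgll2/Slc17a6 neurons among all cells, neurons and glutamate neurons (left, percent) and of their Fezf1, Bsx and neither classes (right, percent) in the dHet and control libraries, with exact 95% binomial intervals. The members are 2.72% of dHet and 2.82% of control cells, and the Fezf1 class is 57.01% of dHet and 44.9% of control members, with overlapping intervals throughout.

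Of the 6 genes that name these cells, Vgll2 and Slc17a6 are in the rule, and the others are Bsx, Cbln2, Nrn1 and Cartpt. These values describe the cells; no test of members against other cells was made, since the rule selected the members on these values. Vgll2 averaged 271 CPM in dHet and 221 CPM in control members (1.23 times, interval 1.10 to 1.37). The rule set a lower limit on Vgll2, so this ratio describes only cells past that limit. Slc17a6 was at 766 CPM in dHet and 695 CPM in control members, and at 704 CPM in dHet and 695 CPM in control other glutamate neurons. Both sets of cells were chosen on the same lower limit of Slc17a6.

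Bsx, a homeobox factor known for its role in Agrp and Npy neurons, was at 32.9 CPM in dHet and 44.3 CPM in control members, against 17.0 CPM in dHet and 25.8 CPM in control other glutamate neurons. Cbln2, a secreted synaptic organiser, was at 118 CPM in dHet and 183 CPM in control members, against 63.5 CPM in dHet and 82.4 CPM in control other glutamate neurons. Both were higher in members than in other glutamate neurons of the same library. Nrn1, a membrane-anchored neurite growth factor, went the other way, at 18.8 CPM in dHet and 3.47 CPM in control members. In other glutamate neurons it was at 64.4 CPM in dHet and 75.1 CPM in control. The member levels rest on 48 UMIs in 11 of 107 dHet members and 9 UMIs in 3 of 98 control members. The 5 richest dHet members held 81.25% of the dHet UMIs.

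Cartpt, which encodes the CART peptide, did not mark the members. A Cartpt UMI was found in 14.0% of dHet members (15 of 107) and 18.4% of control members (18 of 98), against 21.8% of dHet and 24.6% of control other glutamate neurons and 55.4% of dHet and 52.2% of control Tbx19 neurons with 0 Vgll2 UMIs. After every cell was thinned to 10000 UMIs the member shares were 11.9% in dHet and 14.6% in control. In cells below the neuron limit the share was 2.71% in dHet and 1.98% in control, at a median depth of 7330.5 UMIs in dHet and 8246.5 in control. The members therefore held Cartpt in a smaller share of cells than the other glutamate neurons of either library.

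**Figure D2:**
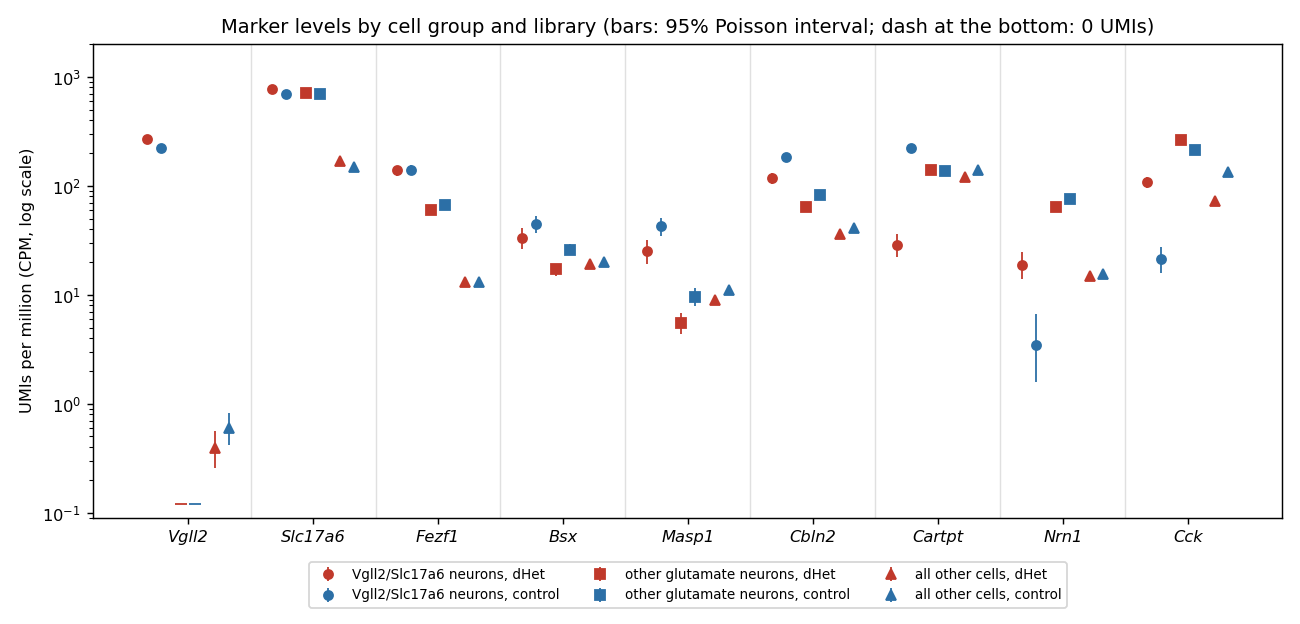
Level of 9 genes (CPM, log scale) in Vgll2/Slc17a6 neurons, other glutamate neurons and all other cells of the dHet and control libraries, with 95% Poisson intervals. Fezf1, Bsx, Masp1 and Cbln2 lie higher in members than in other glutamate neurons in both libraries, Nrn1 and Cck lie lower, and Cartpt lies at 28.6 CPM in dHet and 224 CPM in control members.

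**Figure D3:**
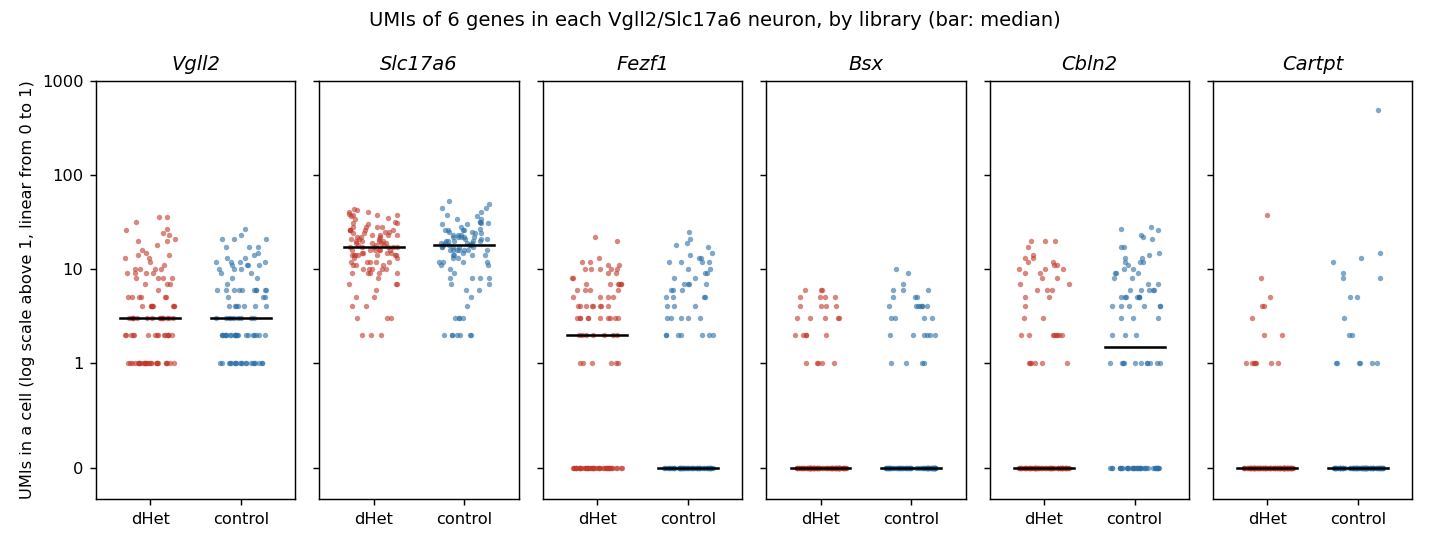
UMIs of 6 genes in each of the 107 dHet and 98 control members (log scale above 1), with the median as a bar. Fezf1 and Bsx are each at 0 in many members, and 1 control cell holds 493 Cartpt UMIs, while the next highest control cell holds 15.

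Against other glutamate neurons, 10947 genes could be compared, each with 100 UMIs or more in either set of cells and detected in 10% or more of one group. Of these, 40 were at least 1.5-fold higher in members in both libraries (0.365%) and 77 at least 1.5-fold lower in both (0.703%). Other glutamate neurons held 25874282 UMIs in all and members 5150417. A gene low in members thus passed this filter more easily than one high in them, so 40 and 77 are not on an equal footing. Before a log2 ratio was taken, 5 CPM were added to the level in either group. Ordered by the mean of the libraries, Qrfp came next after Vgll2, but its log2 ratio was −0.83 in dHet and 6.39 in control, and 5 cells held 94.9% of its UMIs in members. After it came Masp1, a serine protease of the complement lectin pathway, with a log2 ratio of 1.52 in dHet and 1.71 in control. C1ql3, another C1q-family synaptic organiser, had a mean log2 ratio of 1.54, but 5 cells held 64.9% of its UMIs.

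The other genes of this list include transcription factors, adhesion molecules and secreted proteins. Among them Bace2, a beta-secretase, was at 19.2 CPM in dHet and 21.6 CPM in control members, against 3.88 CPM in dHet and 5.07 CPM in control other glutamate neurons. Cadps2, a priming factor of dense-core vesicles, was at 212 CPM in dHet and 161 CPM in control members, against 79.6 CPM in dHet and 73.3 CPM in control other glutamate neurons. Wnt5a, a secreted Wnt ligand, was at 21.9 CPM in dHet and 27.8 CPM in control members, against 7.97 CPM in dHet and 9.79 CPM in control other glutamate neurons. Col8a1, Krt18, Id2, Fezf1, Reln, Nr2f2, Nr2f1, St18, Cdh6, Nfia, Nell1, Gpc6 and Cbln2, described above, complete the list, with mean log2 ratios of the libraries between 0.87 and 1.27.

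Among the genes that were lower in members in both libraries, 4 are given here, chosen after their values were seen. Lhx1, a LIM homeobox gene, was at 7.04 CPM in dHet and 1.93 CPM in control members, against 46.6 CPM in dHet and 27.01 CPM in control other glutamate neurons. Bcl11b, a zinc finger factor, was at 12.5 CPM in dHet and 9.25 CPM in control members, against 71.4 CPM in dHet and 50.9 CPM in control other glutamate neurons. Foxp2, a forkhead factor, was at 5.08 CPM in dHet and 3.09 CPM in control members, against 37.1 CPM in dHet and 27.5 CPM in control other glutamate neurons. Calcr, the calcitonin receptor, was at 6.65 CPM in dHet and 8.10 CPM in control members, against 35.6 CPM in dHet and 44.4 CPM in control other glutamate neurons. Of 26 hypothalamic transcription factors compared, 3 (Bsx, Isl1 and Fezf1) were at least 1.5-fold higher and 9 lower in both libraries. The median log2 ratio was −0.47 over the list and −0.01 over all genes compared, of which 0.365% were higher and 0.703% lower. Only 14 of the 26 met the filter within members alone. Foxp2, with 21 UMIs in members, Lhx1, with 23, and Bcl11b, with 56, passed it through other glutamate neurons. The counts of 3 and 9 therefore do not show which way the list leans.

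Of 15 neuropeptide genes compared, 0 were higher and 5 lower than in other glutamate neurons in both libraries. Their median log2 ratio was −0.46. Over all genes compared, 0.365% were higher and 0.703% lower. Within members alone 9 of the 15 met the filter, so the others entered at least in part through other glutamate neurons. The counts of 0 and 5 are therefore not read as a trait of the members. Cck was at 108 CPM in dHet and 21.2 CPM in control members, against 262 CPM in dHet and 211 CPM in control other glutamate neurons. The member levels rest on few cells, since the 5 richest held 94.9% of its UMIs in dHet and 94.55% in control. A Cck UMI was found in 9.35% of dHet and 8.16% of control members, against 24.5% of dHet and 24.8% of control other glutamate neurons. Of 22 genes of peptide processing and secretory granules, 2 were higher and 0 lower. These were Cadps2 and Pam, the enzyme that amidates peptides, whose log2 ratio was 0.90 in dHet and 0.83 in control. Of 31 leptin and insulin signalling genes, 0 were higher and 0 lower. Lepr, the leptin receptor, had 4 UMIs in dHet members and 3 UMIs in control members.

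The members were not one kind of cell. Fezf1, a zinc finger factor needed for development of the ventromedial hypothalamus, was found in 106 members and Bsx in 56, and only 1 member held both. Among 1063 other glutamate neurons 249 held Fezf1, 230 Bsx and again 1 both. Members were therefore divided by these 2 genes into a Fezf1 class, a Bsx class and cells with neither, a division chosen after the values were seen. The Fezf1 class had 61 dHet and 44 control members, the Bsx class 26 dHet and 29 control members, and 20 dHet and 24 control members held neither. The remaining control member held both genes.

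The rule required Vgll2 in every member, so it was present in all 3 classes. It was at 278 CPM in dHet and 185 CPM in control members of the Fezf1 class, at 324 CPM in dHet and 345 CPM in control members of the Bsx class, and at 161 CPM in dHet and 150.5 CPM in control members with neither. At least 10 Vgll2 UMIs were held by 15 dHet and 10 control members of the Fezf1 class. In the Bsx class 7 dHet and 10 control members did so, and with neither gene 1 dHet and 3 control members. A single Vgll2 UMI was held by 9 dHet and 6 control members with neither gene. Members with neither gene were shallower in dHet, with a median of 18343.5 UMIs in dHet and 23997.5 in control. Whether depth set the class of a cell was not tested.

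The Fezf1 and Bsx classes differed from each other in several genes, chosen here after their values were seen. In the Fezf1 class, the orphan nuclear receptor Nr2f2 was at 416.5 CPM in dHet and 348 CPM in control, against 4.76 CPM in dHet and 1.38 CPM in control members of the Bsx class. Adcyap1, which encodes the peptide PACAP, was at 200.4 CPM in dHet and 186.5 CPM in control members of the Fezf1 class, against 9.53 CPM in dHet and 0 in control members of the Bsx class. Of 86 members with a UMI of Sox14, a SOX-family factor, 82 also held Fezf1. Nr5a1, the steroidogenic factor that marks the ventromedial nucleus, was found in 48 members, and 45 of these held Fezf1. The synaptic organiser Cbln1 was at 273 CPM in dHet and 232 CPM in control members of the Fezf1 class, against 9.53 CPM in dHet and 9.66 CPM in control members of the Bsx class. Such genes were not particular to members. Of 249 other glutamate neurons with Fezf1, 201 held Nr2f2, 180 Adcyap1, 171 Sox14 and 122 Nr5a1. Members with neither class gene had Nr2f2 at 256 CPM in dHet and 109 CPM in control.

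Among the genes that were higher in the Bsx class were Masp1, Bace2 and Cbln2. Masp1 was at 90.5 CPM in dHet and 127 CPM in control members of the Bsx class, against 0.651 CPM in dHet and 6.43 CPM in control members of the Fezf1 class. Bace2 was at 74.6 CPM in dHet and 73.1 CPM in control members of the Bsx class and at 0 in the Fezf1 class of both libraries. Cbln2 was at 367 CPM in dHet and 436 CPM in control members of the Bsx class, against 27.3 CPM in dHet and 59.5 CPM in control members of the Fezf1 class. Of 55 members with a Masp1 UMI 44 held Bsx, and of 56 with Bsx 53 held Cbln2. Cbln2 was also detected in 19.7% of dHet and 43.2% of control members of the Fezf1 class.

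**Figure D4:**
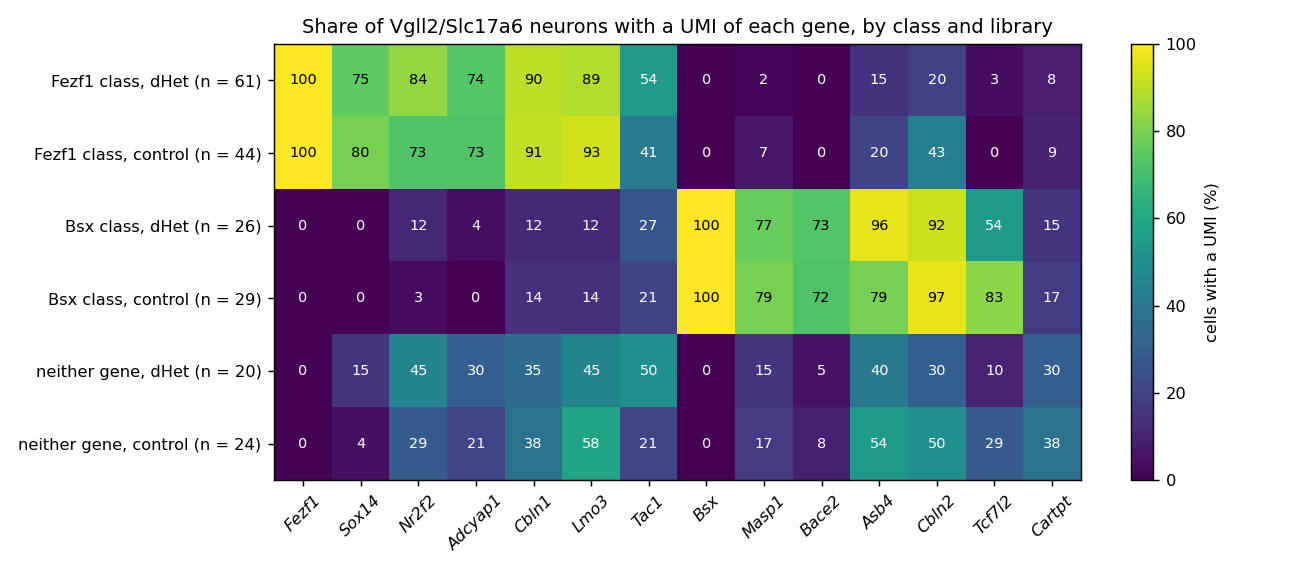
Percent of Vgll2/Slc17a6 neurons with a UMI of 14 genes, by class and library. Fezf1, Sox14, Nr2f2, Adcyap1, Cbln1 and Lmo3 are each found in most cells of the Fezf1 class in dHet and control, Bsx, Masp1, Bace2, Asb4 and Cbln2 in most cells of the Bsx class, and Cartpt is below 40% in each row.

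Within a class, members still differed from glutamate neurons of the same class with 0 Vgll2 UMIs, by genes also chosen after their values were seen. Among Bsx glutamate neurons, Masp1 was at 90.5 CPM in dHet and 127 CPM in control members, against 18.5 CPM in dHet and 18.4 CPM in control cells with 0 Vgll2 UMIs. Ppp1r17, a phosphatase regulator, was at 42.9 CPM in dHet and 45.5 CPM in control members, against 285 CPM in dHet and 363 CPM in control cells with 0 Vgll2 UMIs. Otp and Sox14 had 0 UMIs in members of the Bsx class in both libraries; in Bsx cells with 0 Vgll2 UMIs Otp was at 38.6 CPM in dHet and 17.4 CPM in control. Among Fezf1 glutamate neurons, the transcriptional repressor St18 was at 43.0 CPM in dHet and 39.4 CPM in control members, against 13.1 CPM in dHet and 9.48 CPM in control cells with 0 Vgll2 UMIs, and the cadherin Cdh6 was at 113 CPM in dHet and 89.2 CPM in control members, against 44.7 CPM in dHet and 38.3 CPM in control cells with 0 Vgll2 UMIs.

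The ratios of class shares between dHet and control members had intervals that include 1. The Fezf1 class made up 57.01% of dHet members (interval 47.1 to 66.5) and 44.9% of control members (34.8 to 55.3), a ratio of 1.27 (0.848 to 1.92). The Bsx class made up 24.3% of dHet (16.5 to 33.5) and 29.6% of control members (20.8 to 39.7), a ratio of 0.821 (0.465 to 1.44). Over all glutamate neurons, with or without Vgll2, Bsx cells were 18.7% in dHet and 26.9% in control, a ratio of 0.697 (0.548 to 0.886). Members made up 19.8% of dHet and 19.0% of control Bsx glutamate neurons, a ratio of 1.05 (0.592 to 1.84).

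Some of the members with neither gene held many UMIs of a peptide gene. In all, 7 members held at least 10 Qrfp UMIs, 2 in dHet and 5 in control, with 28 to 453 UMIs each. Qrfp encodes a neuropeptide of the RFamide family known from the lateral and tuberal hypothalamus. All 7 also held C1ql3 and Lhx9, a LIM homeobox gene, and 0 of the 7 held Fezf1 or Bsx. They carried 66.9% of all C1ql3 UMIs in members and 84.5% of those of Lhx9, which was found in 3 of the other 198 members. Their Vgll2 was low, at 1 to 4 UMIs a cell. Outside the members, 2 dHet cells and 1 control cell held 10 or more Qrfp UMIs.

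A single control member held 9649 UMIs of Pmch, which encodes melanin-concentrating hormone, of 57298 UMIs in all, the most of any member of its library. It held 493 Cartpt UMIs, 1 Vgll2 UMI and 2 Slc17a6 UMIs, so it met the rule at both lower limits. The other 97 control members held 1 Pmch UMI between them and the 107 dHet members held 3.

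Cartpt in members differed between the libraries mainly through that cell. The total was 73 UMIs (28.6 CPM) in dHet members and 581 UMIs (224 CPM) in control members, a ratio of 0.127 (0.0985 to 0.163) and a log2 ratio of −2.77 with 5 CPM added. The 5 cells with most Cartpt held 80.8% of these UMIs in dHet and 93.3% in control, and outside them 14 UMIs were left in dHet and 39 in control. Without the 5 richest cells of each library the log2 ratio was −0.97. Without the 8 members rich in Qrfp or Pmch the totals were 70 UMIs in dHet and 59 in control, and the log2 ratio was 0.14. In other glutamate neurons Cartpt was at 139 CPM in dHet and 136 CPM in control.

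Across genes, dHet and control members were compared for 7025 genes that reached 100 UMIs over all members together and were detected in 10% or more of the members of one library. Of these, 63 (0.897%) were at least 1.5-fold higher in dHet and 66 (0.94%) at least 1.5-fold lower, and the median log2 ratio was −0.03. Those counts have no replicate behind them. Among 12 mitochondrial transcripts tested, 11 were higher in dHet and 5 at least 1.5-fold higher, for example mt-Nd1 at 5406 CPM in dHet and 3152 CPM in control members. In other glutamate neurons mt-Nd1 was at 5295 CPM in dHet and 3146 CPM in control, a difference of the same direction. In members with Xist and no Y-linked UMI it was at 5375 CPM in dHet and 3095 CPM in control, and in those with a Y-linked UMI and no Xist at 5579 CPM in dHet and 3206 CPM in control, so it was as large within each set. Leaving mitochondrial UMIs out of the scaling gave 75 higher and 59 lower genes.

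The 12 genes with the highest ratios, in order, were Apoe, Cdkn1c, Dlgap2, AC149090.1, Sfrp2, Nefm, Slit3, Ccnd2, Tac1, Spaca6, Amn and Cmbl. Apoe, an apolipoprotein mostly made by glia, had 147 UMIs in dHet and 27 UMIs in control members, but 115 of the dHet UMIs were in 1 cell. That cell, of the Bsx class, held 185 UMIs of the 12 astrocyte markers against a median of 3 over members, 12 of them Aqp4 and 32 Slc1a3, and it held both Xist and Y-linked UMIs. Without the 5 members of each library with most Apoe the log2 ratio was 0.03. Cdkn1c, a cell cycle inhibitor, was likewise held by few cells, since 5 had 91.3% of its dHet UMIs, and without them its log2 ratio was −0.38.

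Other genes of the higher set were spread over more cells. Dlgap2, a scaffold protein of the postsynaptic density, had a UMI in 54 of 107 dHet and 25 of 98 control members, at 28.9 CPM in dHet and 11.95 CPM in control (2.42 times, interval 1.57 to 3.81). The Fezf1 class showed little difference in Dlgap2, at 27.3 CPM in dHet and 21.7 CPM in control (1.26 times, 0.758 to 2.12). The Bsx class held 20 Dlgap2 UMIs in dHet and 2 in control, and members with neither gene 12 in dHet and 2 in control. In other glutamate neurons Dlgap2 was at 16.6 CPM in dHet and 15.9 CPM in control. Slit3, an axon guidance ligand, was at 57.1 CPM in dHet and 27.4 CPM in control members (2.09 times, 1.56 to 2.81), and at 30.6 CPM in dHet and 28.9 CPM in control other glutamate neurons. It lies mostly in the Fezf1 class, where it was at 87.9 CPM in dHet and 54.7 CPM in control. Sfrp2, a secreted Wnt antagonist, was at 34.4 CPM in dHet and 15.4 CPM in control members (2.23 times, 1.52 to 3.33), and at 16.4 CPM in dHet and 21.1 CPM in control other glutamate neurons. Whether the difference between dHet and control is unlike in members and other glutamate neurons was not tested.

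Some of these genes differed between the libraries in other glutamate neurons too. Nefm, the medium neurofilament subunit, was at 48.5 CPM in dHet and 22.8 CPM in control members, and at 88.9 CPM in dHet and 44.8 CPM in control other glutamate neurons. Its log2 ratio was 1.84 in members with Xist and no Y-linked UMI and 0.02 in those with a Y-linked UMI and no Xist. Tac1, the substance P precursor, was at 311 CPM in dHet and 172 CPM in control members, and at 623 CPM in dHet and 452 CPM in control other glutamate neurons. A single dHet member held 427 of its 796 dHet UMIs. The direction of Tac1 turned in some sets of cells. Its log2 ratio was −1.51 in members with neither class gene, −1.43 in those with a Y-linked UMI and no Xist, −0.86 in cells thinned to 10000 UMIs and −0.14 with at least 2 Vgll2 UMIs. Split by sex genes, Slit3 was at 61.9 CPM in dHet and 11.4 CPM in control members with Xist and no Y-linked UMI, and at 40.7 CPM in dHet and 38.9 CPM in control members with a Y-linked UMI and no Xist. A Fezf1 UMI was found in 59.7% of dHet and 33.3% of control members with Xist and no Y-linked UMI. In those with a Y-linked UMI and no Xist the shares were 48.4% in dHet and 50.9% in control. Class mix thus differed between the libraries within the first set. Whether the Slit3 difference is unlike in the 2 sets was not tested, nor were the parts of sex mix and class mix in it. Ccnd2, a cyclin, was at 45.8 CPM in dHet and 22.8 CPM in control members, and at 34.7 CPM in dHet and 48.3 CPM in control other glutamate neurons. In members with Xist and no Y-linked UMI Ccnd2 was at 58.8 CPM in dHet and 10.4 CPM in control, but in those with a Y-linked UMI and no Xist it was at 20.4 CPM in dHet and 33.5 CPM in control. AC149090.1 was at 235 CPM in dHet and 118 CPM in control members, and at 221 CPM in dHet and 154.5 CPM in control other glutamate neurons. Its log2 ratio was 0.23 in members with Xist and no Y-linked UMI and 1.75 in those with a Y-linked UMI and no Xist. Spaca6, Amn and Cmbl had log2 ratios of 0.82, 0.80 and 0.78 in members.

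The 12 genes with the lowest ratios, from the lowest, were Cartpt, Sst, Junb, Tpm3-rs7, Fos, Gpr101, Tcf7l2, Rock1, Rab3ip, Dgkk, AC160336.1 and Parm1. Sst, the somatostatin precursor, had 211 UMIs in dHet and 690 UMIs in control members, of which 548 were in 1 control cell. That cell is the one that held both Fezf1 and Bsx, and it also held 9 Slc32a1, 9 Gad1 and 11 Gad2 UMIs, genes of GABA neurons. Without the 5 members of each library with most Sst the log2 ratio was 0.41.

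Immediate early genes, which neurons switch on within minutes of activity or stress, stood among the lowest. Of 10 tested members of that list, 0 were at least 1.5-fold higher and 4 lower in dHet, with a median log2 ratio of −0.09, where 0.897% of all genes tested were higher and 0.94% lower. Fos was at 24.6 CPM in dHet and 67.5 CPM in control members (0.365 times, interval 0.269 to 0.490), with a UMI in 20 of 107 dHet and 30 of 98 control members. Junb was at 9.39 CPM in dHet and 36.6 CPM in control members (0.256 times, 0.156 to 0.404). Btg2, with a log2 ratio of −0.82, and Gadd45g, with −0.74, are the other lower ones. The most abundant, Jund, was at 609 CPM in dHet and 483 CPM in control.

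The same direction was read outside the members, where Fos was at 40.4 CPM in dHet and 114 CPM in control other glutamate neurons and Junb at 29.6 CPM in dHet and 58.6 CPM in control. Among members with neither class gene Fos was at 25.6 CPM in dHet and 189.8 CPM in control. In the Bsx class it was at 66.7 CPM in dHet and 71.8 CPM in control, and in the Fezf1 class at 7.16 CPM in dHet and 9.65 CPM in control. The largest gap in Fos was thus among members with neither gene, a difference between classes that was not tested. It rested on few cells, since 5 control members with neither gene held 83.8% of that group's 111 Fos UMIs. Junb was at 7.94 CPM in dHet and 35.9 CPM in control members of the Bsx class. In members with Xist and no Y-linked UMI Fos was at 23.5 CPM in dHet and 135 CPM in control, and in those with a Y-linked UMI and no Xist at 14.5 CPM in dHet and 28.7 CPM in control. It was lower in dHet in both sets, and the part of the sex mix was not tested. The 5 control members with most Fos held 53.7% of control Fos UMIs. Of the 12 heat shock chaperones tested, 0 were higher and 0 lower.

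Tcf7l2, Gpr101 and Dgkk, all among the lower genes, were also compared within the Bsx class. Tcf7l2, the Wnt-responsive TCF factor, was at 73.0 CPM in dHet and 152 CPM in control members of the Bsx class (0.481 times, interval 0.333 to 0.685), and at 62.1 CPM in dHet and 65.8 CPM in control other glutamate neurons. Gpr101, an orphan receptor, was at 20.6 CPM in dHet and 86.9 CPM in control members of the Bsx class (0.237 times, 0.120 to 0.436). These are 13 UMIs in 7 dHet cells and 63 UMIs in 13 control cells, of which 5 held 68.25%. In other glutamate neurons Gpr101 was at 54.2 CPM in dHet and 65.9 CPM in control. Dgkk, a diacylglycerol kinase, was at 74.6 CPM in dHet and 146 CPM in control members of that class (0.510 times, 0.354 to 0.726). All 3 were lower in dHet within the class as well as over all members. Split by sex genes, Dgkk had a log2 ratio of −1.59 in members with Xist and no Y-linked UMI. In those with a Y-linked UMI and no Xist it was −0.19 (0.863 times, 0.545 to 1.34). The log2 ratio of Gpr101 was −0.90 in the first set and −2.05 in the second, which held 6 dHet and 76 control UMIs of it. Gpr101 and Dgkk were also read in members with neither class gene, Gpr101 at 64.0 CPM in dHet and 85.5 CPM in control and Dgkk at 58.9 CPM in dHet and 46.2 CPM in control.

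Tpm3-rs7, a tropomyosin-related copy, was at 16.4 CPM in dHet and 47.4 CPM in control members. In other glutamate neurons it was at 15.2 CPM in dHet and 52.6 CPM in control. Members with Xist and no Y-linked UMI held 38 of its UMIs in dHet and 37 in control (0.611 times, 0.378 to 0.987). Those with a Y-linked UMI and no Xist held 2 in dHet and 75 in control (0.0568 times, 0.00675 to 0.212). Whether the difference is unlike in these sets was not tested. Tpm3-rs7 resembles the Tpm3 gene, so reads may be split between them. Rock1, a protein kinase, and Rab3ip, a Rab exchange factor, had log2 ratios of −1.04 and −1.03 in members and of −0.48 and −0.34 in other glutamate neurons. AC160336.1 and Parm1 had log2 ratios of −0.99 and −0.94 in members and of −0.76 and −0.63 in other glutamate neurons.

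**Figure D5:**
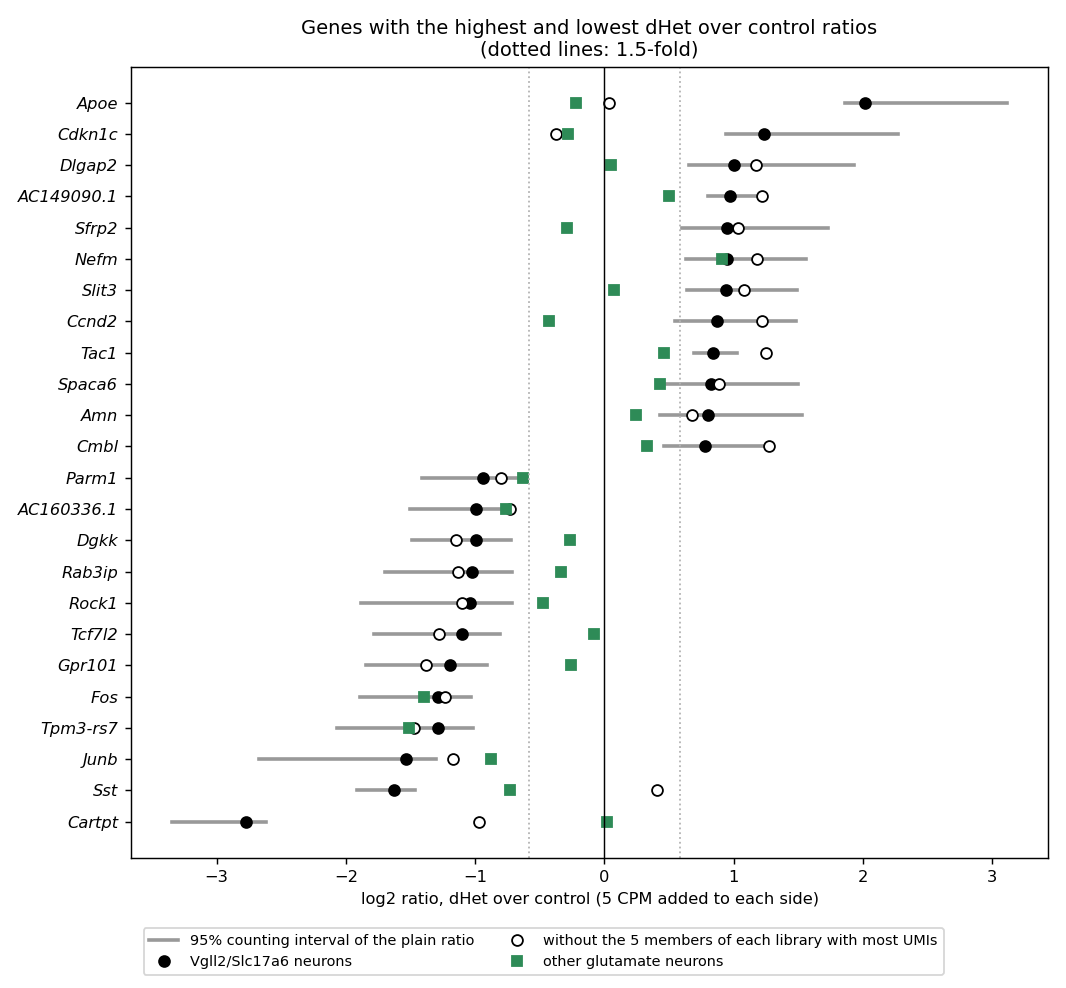
Log2 ratio of dHet over control for the 12 genes with the highest and the 12 with the lowest ratios in Vgll2/Slc17a6 neurons (filled circles, grey bars for the 95% counting interval of the plain ratio), without the 5 members of each library with most UMIs (open circles), and in other glutamate neurons (green squares). Apoe, Cdkn1c, Sst and Cartpt move furthest toward or past 0 without those cells, while Dlgap2, Slit3, Tcf7l2 and Gpr101 do not.

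The gene lists are to be read against the 0.897% of all tested genes that were higher and the 0.94% that were lower in dHet. Of 22 peptide processing and secretory granule genes, 16 immature neuron genes, 21 leptin and insulin signalling genes and 20 potassium channels tested, 0 were at least 1.5-fold higher and 0 lower in dHet in each list, with medians between 0.00 and 0.09. Of 32 synaptic organisers 0 were higher and 2 lower, Cbln4 at 55.1 CPM in dHet and 93.7 CPM in control and Cbln2 at a ratio of 0.643 (interval 0.555 to 0.744). In members with Xist and no Y-linked UMI Cbln2 was at 125.0 CPM in dHet and 254 CPM in control, and in those with a Y-linked UMI and no Xist at 112 CPM in dHet and 135 CPM in control. The Cbln2 ratio was 0.459 (0.307 to 0.680) within the Fezf1 class, 0.841 (0.707 to 1.00) within the Bsx class and 0.524 (0.328 to 0.815) in members with neither gene. Of 32 glutamate and GABA receptor subunits 0 were higher and 2 lower, and of 17 feeding and hormone receptors tested 0 were higher and 1 lower, the serotonin receptor Htr2c, at 16.0 CPM in dHet and 34.3 CPM in control. The cannabinoid receptor Cnr1 was at 256 CPM in dHet and 171 CPM in control.

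Of 23 measured genes of the list of TEAD cofactors and the Hippo pathway, 4 passed the filter between genotypes and 0 differed 1.5-fold. These were Tead1, Amotl1, Mob1b and Vgll2 itself, which the rule required. Tead1, the only TEAD factor tested, was at 69.6 CPM in dHet and 53.6 CPM in control members, and at 42.9 CPM in dHet and 49.5 CPM in control other glutamate neurons. Of 29 nuclear genes of the respiratory chain 0 were called in either direction, with a median log2 ratio of −0.15, and 21 of the 29 were below 0, beside the higher mitochondrial transcripts.

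Markers of other cells were low in most members. Of 8 microglia markers 6 were at 0 in members, with a summed level of 0.391 CPM in dHet and 0.386 CPM in control. The 12 astrocyte markers summed to 260 CPM in dHet and 203 CPM in control members, most of it Aldoc, at 145 CPM in dHet and 148 CPM in control, and Slc1a2. The 12 pan-neuronal genes summed to 9818 CPM in dHet and 9547 CPM in control members, but 3 of them, Snap25, Stmn2 and Syt1, were used by the rule. The part of glial RNA in the other differences was not tested.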

How the data were processed

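The authors deposited UMI counts per gene and cell as 10x matrices, made with Cell Ranger (version 3.0.2 per the file headers, with mm10 named in the submitters' processing notes). They also deposited 1 table of counts for 7418 cells of both libraries, used here; the sources used here do not state how its cells were filtered. No doublets were called here. Members and gene lists were chosen with earlier results of these data known, and the Fezf1 and Bsx classes and their genes after the values were seen. UMIs were summed over cells per library and scaled to CPM; 5 CPM were added before log2 ratios, and 1.5-fold marks a call, without any test. Shares have 95% Clopper-Pearson intervals, levels Poisson intervals, ratios conditional binomial ones. A count of 0 allows 3 UMIs. Genes named between genotypes are the 12 highest and 12 lowest ratios, and against glutamate neurons the 20 highest. Mitochondrial, ribosomal and haemoglobin genes, and models named Gm with digits or ending in Rik, were left out of both. Xist, Tsix, Ddx3y, Eif2s3y, Uty and Kdm5d were left out too, but other genes of the sex chromosomes were not. From each list come up to 4 of the largest ratios and the most abundant gene. Promoters come from RefSeq. Python 3.11.15, numpy 2.4.6, scipy 1.17.1 and pandas 2.3.3 were used. The code of the genotype comparison was run on simulated cells, drawn with Poisson error from a single pooled member profile with set fold changes. Those cells had no classes, sexes or single rich cells, so the run checks the code and not the comparison in cells like these.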

Additional observations from a re-analysis of the deposited data

Results flagged for a closer look

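Several of the named genes differed in opposite directions, each past 1.5-fold, between sets of members with at least 20 UMIs of the gene. None of these differences was tested. Class mix also differed between the libraries within the members with Xist and no Y-linked UMI. Tac1 had a log2 ratio of dHet over control of 1.59 in the Fezf1 class and −1.51 in members with neither class gene, 3.09 apart, and of 1.57 in members with Xist and no Y-linked UMI and −1.43 in those with a Y-linked UMI and no Xist, 2.996 apart. Its 5 richest cells held 75.1% of dHet and 82.7% of control UMIs. Nefm was at 1.07 in the Fezf1 class and −0.94 in members with neither gene, 2.01 apart, but the second value rests on 5 dHet and 17 control UMIs, and the counting interval of its ratio, 0.127 to 1.24, includes 1. Ccnd2, a cyclin, was at 2.05 in members with Xist and no Y-linked UMI and −0.60 in those with a Y-linked UMI and no Xist, 2.65 apart, the second from 14 dHet and 49 control UMIs with an interval of 0.310 to 1.12 that includes 1. Sst was at 2.10 and −3.24 in the same sets, 5.34 apart, with 548 of its control UMIs in 1 cell.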

How the results depend on the processing

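The share of members kept a ratio between 0.892 and 1.02 under all 5 alternatives. The count of genes 1.5-fold higher in dHet, 63, was 39 in the 10x matrices, 40 in thinned cells, 19 with 20 CPM added, 10 at 500 UMIs, 242 without a filter and 147 in members with Xist and no Y-linked UMI; the count lower, 66, was 112 with 1 CPM added, 23 with 20 CPM, 137 with cells weighted equally, 11 at 500 UMIs, 255 without a filter and 107 in members with a Y-linked UMI and no Xist. Of the 63 and 66, 12 and 7 were called again in thinned cells. Cartpt, at −2.77, was −2.50 in the 10x matrices, −1.36 with 2 Vgll2 UMIs, −0.29 in thinned cells, −2.33 with 20 CPM, −1.80 with cells weighted equally, −0.97 without the 5 richest cells, −2.53 with classes weighted equally, −0.72 and −3.54 in the Xist and Y-linked sets and 0.14 without the 8 Qrfp or Pmch cells. Of 23 other named genes 19 kept their direction in all 15 settings, but 12 moved in size in the Xist set, 12 in the Y-linked set, 9 in thinned cells and 9 with 20 CPM added; Apoe was 0.03 without its richest cells and Nefm 0.02 in the Y-linked set. Cdkn1c was −0.38 without its richest cells; Ccnd2 −0.60 in the Y-linked set; Tac1 −0.14 with 2 Vgll2 UMIs, −0.86 in thinned cells and −1.43 in the Y-linked set; Sst 0.53 with at most 1 Slc32a1 UMI, 0.41 without its richest cells, 0.62 with classes weighted equally and 2.10 in the Xist set. The class, sex, peptide and mitochondrial settings were chosen after seeing the data. Other causes were not tested. No paired analysis was possible because each genotype is 1 pooled library.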
